A study of Mus musculus with 16 samples.

Results

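Ribosome biogenesis genes were followed across lungs, heart and skin fibroblasts of mice that lack NM1 (knockout, KO) and of wild-type (WT) mice. The set was a list of 43 genes for nucleolar factors that process ribosomal RNA (rRNA) or assemble ribosomal subunits. A gene counted as measured when the array held a probe set annotated to that gene alone, and its probe set with the highest mean over the 16 arrays was read. By this rule 39 of the 43 genes were measured, of 17097 genes in all. Tsr1, Gnl3, Gtpbp4 and Mybbp1a had no such probe set and were not analysed here. NM1, nuclear myosin 1, is a nuclear isoform made from Myo1c, a motor protein known to take part in rRNA gene transcription and to belong to a chromatin remodelling complex named B-WICH.

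The arrays fell into 6 groups. Lungs and heart came from the same 3 KO mice (1602, 1603 and 1586) and the same 3 WT mice (1592, 1624 and 1593), and fibroblasts came from 2 KO mice (1584 and 1550) and 2 WT mice (1571 and 1623). The labels give the genotypes only as NM1 knock-out and wild type, and strain, age and targeted part of the gene were not found in the labels. All values below are log2 signals, so that a difference of 1 is a doubling of signal.

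Ribosomes are built in the nucleolus. RNA polymerase I makes a long rRNA precursor there, small nucleolar RNPs (snoRNPs) modify it, and the small subunit processome and a series of large subunit factors cut, fold and package it with ribosomal proteins. Growing and dividing cells need many ribosomes, and many of these factors are known targets of the transcription factor Myc.

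The targeted gene Myo1c was lower on every KO array than on every WT array of the same tissue, by 1.15 in lungs, 0.84 in heart and 1.32 in fibroblasts on the log2 scale, with limma adjusted p of 0.0674, 0.0866 and 0.0816, and it was called lower over both organs (-0.99, adjusted p = 0.00934). Array medians lay between 3.65 and 3.93. One array was set off from the others of its tissue, KO heart 1602, whose upper quartile was 5.63 where the other hearts had 6.17 to 6.31. Markers of other cell types also differed. The mean of 6 atrial muscle markers lay at 5.07, 9.48 and 5.82 in KO hearts 1602, 1603 and 1586 and between 8.85 and 10.07 in WT hearts, and the mean of 7 adipocyte markers reached 7.88 and 8.30 in KO lungs 1603 and 1586 and 6.57 in WT lungs 1592, against at most 4.02 in the other 3 lungs. Markers of fibroblasts (mean of 8) lay at 6.60, 7.38 and 6.85 in KO hearts and between 7.40 and 8.01 in WT hearts, and erythroid markers (mean of 3) between 6.92 and 7.20 in KO and between 7.68 and 8.91 in WT hearts, so neither list overlapped between the genotypes. Lung epithelium markers (mean of 7) lay between 3.69 and 4.4 in KO hearts and between 3.51 and 3.63 in WT hearts. Sftpc, Myl2 and Col1a1 were highest in lungs, heart and fibroblasts, as labelled. Not every fibroblast marker followed the labels. Col1a2, Col3a1, Pdgfra, Thy1 and Postn were also highest in fibroblasts. Lum, however, was highest in heart, at 9.36 to 10.78 against 6.78 to 9.03 in fibroblasts. Dcn in heart (11.48 to 12.37) lay within its fibroblast range (10.66 to 12.62). In these bulk samples, fewer cells of a type and less RNA per cell cannot be told apart.

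**Figure D1:**
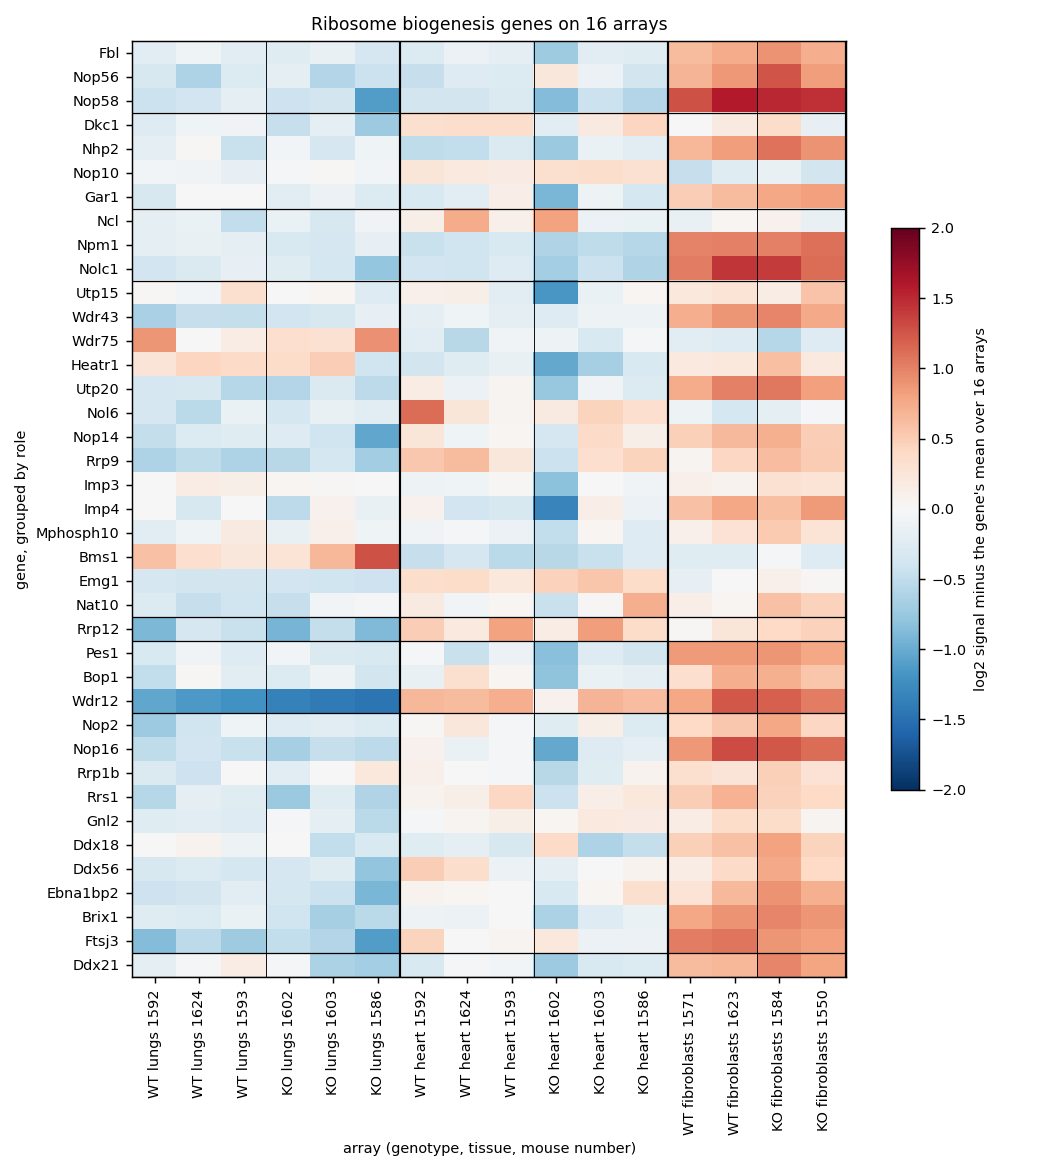
Heat map of the 39 genes (rows, grouped by role) on the 16 arrays (columns, by genotype, tissue and mouse number). Colour is the log2 signal minus the gene's mean over the 16 arrays. Most genes are highest in the 4 fibroblast columns, and KO heart 1602 is the lowest heart array for 29 of the 38 genes kept there.

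The clearest pattern in the set was between tissues. In WT samples, 26 of the 38 genes kept by the filter were higher in fibroblasts than in lungs and 1 was lower (limma, Benjamini-Hochberg adjusted p under 0.05), where 31.7% of all probe sets tested were called higher and 28.4% lower. Against heart, 16 of 38 genes were higher in fibroblasts and 3 were lower, beside 36.2% and 27.7% of all probe sets. The median difference of the genes was 0.77 against lungs and 0.44 against heart, where the median of all probe sets tested was 0.05 and 0.16. Differences were above 0 for 33 and 31 of the 38 genes, beside 51.8% and 55.7% of all probe sets. Both comparisons use the same 2 WT fibroblast arrays. Fibroblasts also came from other mice than the organs, so tissue, mice and the handling of the samples cannot be told apart.

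The core proteins of box C/D snoRNPs, which guide ribose methylation of rRNA, all rose in fibroblasts. Nop58, a scaffold protein of these particles, stood at 7.75, 7.79 and 7.99 in WT lungs, at 7.82, 7.81 and 7.89 in WT hearts and at 9.45 and 9.77 in WT fibroblasts. Both fibroblast values lay above every organ value, and the difference was 1.76 against lungs (SE 0.21, 3.40-fold, limma adjusted p = 6.41e-06) and 1.77 against heart. Its partner Nop56 was 1.18 higher than in lungs and 1.11 higher than in heart. Fbl, fibrillarin, the methyltransferase of the particle, was 0.86 and 0.88 higher, with an adjusted p of 2.61e-04 against lungs. None of the 3 was called between lungs and heart, where their differences lay between -0.07 and 0.02.

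The box H/ACA proteins, which form the pseudouridine synthase particle and also bind telomerase RNA, differed among themselves, in part with the probe set read. Nhp2 was 0.96 higher in fibroblasts than in lungs and 1.19 higher than in heart, and Gar1 was 0.67 and 0.69 higher. Dkc1, dyskerin, the pseudouridine synthase itself, was not called in either fibroblast comparison (0.23 against lungs and -0.26 against heart), while it was 0.49 lower in lungs than in heart. Its second probe set was called 0.78 higher in fibroblasts than in lungs (adjusted p = 0.0119) and was not called against heart. Nop10, the smallest protein of the particle, went the other way. Its values were 10.96, 10.92 and 10.89 in WT hearts, 10.67, 10.65 and 10.57 in WT lungs and 10.27 and 10.48 in WT fibroblasts. The 3 groups did not overlap, and Nop10 was lower in fibroblasts than in heart by 0.55 (SE 0.11, limma adjusted p = 7.86e-04). Against lungs its difference of -0.25 was not called (adjusted p = 0.067), and its second probe set was called 0.31 higher there, so the order of lungs and fibroblasts depended on the probe set.

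Among the abundant nucleolar proteins, Npm1 and Nolc1 rose in fibroblasts. Npm1, nucleophosmin, a histone and ribosome chaperone, lay at 9.92, 9.95 and 9.92 in WT lungs, at 9.65, 9.70 and 9.80 in WT hearts and at 11.10 and 11.11 in WT fibroblasts. The spread within each group was small beside the gap, and the difference was 1.17 against lungs (SE 0.11, limma adjusted p = 5.83e-07) and 1.39 against heart. Nolc1, a chaperone of snoRNPs, was 1.50 higher than in lungs and 1.57 higher than in heart, while its other probe sets gave 0.30 and 1.66 against lungs, of which the second was called, and 0.36 and 1.17 against heart, where neither was called. The probe set of Ncl, nucleolin, had a mean of 3.76 over the 16 arrays, near the filter value of 3.79, so its level could hardly be read and it was not kept against lungs.

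The small subunit processome, which assembles on the precursor while it is still being made, was mixed. Of its 14 measured genes, 5 rose and 1 fell in fibroblasts against lungs, and of the 13 kept against heart 3 rose and 2 fell. Of all probe sets, 31.7% were called higher and 28.4% lower against lungs, and 36.2% and 27.7% against heart. The counts of rises thus lay near or below these shares. Wdr43 and Utp20 were called higher in both comparisons, Wdr43 by 1.34 and 0.95 and Utp20 by 1.29 and 0.85. Nop14 and Rrp9, a protein of the U3 snoRNP, were 0.89 and 0.82 higher in fibroblasts than in lungs, and their differences of 0.50 and -0.23 from heart were not called. Imp4, which binds U3 snoRNA with Imp3 and Mphosph10, was 0.89 higher than in heart (adjusted p = 0.0313) and 0.79 higher than in lungs, which missed the threshold (adjusted p = 0.0531). Its second probe set was called against lungs (0.58) and not against heart (0.31). Imp3, Mphosph10, Utp15 and Nat10 were not called in any tissue comparison by the probe set read. The second Utp15 probe set was called 0.89 higher in fibroblasts than in heart and 0.58 higher in lungs than in heart (adjusted p = 4.68e-04 and 0.00497).

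Bms1, the GTPase of the processome, was the only gene called lower in fibroblasts than in lungs. It stood between 9.90 and 10.25 in WT lungs, at 9.20, 9.33 and 9.13 in WT hearts and at 9.43 and 9.42 in WT fibroblasts. Lungs lay above both other tissues without overlap, and the difference was 0.83 between lungs and heart (SE 0.20, limma adjusted p = 0.00285) and -0.62 between fibroblasts and lungs. The second of these calls was lost without WT lungs 1592, WT fibroblasts 1571 or WT fibroblasts 1623, and when only the arrays of the compared tissues were fitted. Nol6 and Emg1, an rRNA methyltransferase, were lower in fibroblasts than in heart, by 0.69 and 0.39 on the log2 scale. Both calls were lost under some alternative setting. Nol6 stood at 5.75, 4.88 and 4.70 in WT hearts, and between KO fibroblasts and KO heart it was not called (-0.43, limma adjusted p = 0.132). Emg1 had values from 9.13 to 9.16 in WT lungs, 9.34 and 9.49 in WT fibroblasts and 9.71 to 9.86 in WT hearts, an order in which no groups overlapped.

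The PeBoW complex of Pes1, Bop1 and Wdr12, which processes the large subunit rRNA precursor, rose as a whole against lungs. Wdr12 had the largest tissue difference of the set. Its values were 4.70, 4.60 and 4.54 in WT lungs, 6.41, 6.37 and 6.47 in WT hearts and 6.51 and 6.98 in WT fibroblasts. Lungs lay far below both other tissues, 2.13 under fibroblasts (SE 0.18, 4.38-fold, limma adjusted p = 2.26e-07) and 1.80 under heart (3.49-fold, limma adjusted p = 2.97e-07), while fibroblasts and heart were not called apart (0.33). The second Wdr12 probe set gave the same directions with smaller sizes, 0.56 between fibroblasts and lungs (adjusted p = 0.0275) and -0.30 between lungs and heart (adjusted p = 0.161), so the size rests on the probe set. Pes1 was 1.07 higher in fibroblasts than in lungs and 1.06 higher than in heart. Bop1 was 0.75 higher than in lungs and, with 0.46, was not called against heart.

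Large subunit factors went one way. All 10 measured genes had a higher mean in WT fibroblasts than in WT lungs and than in WT heart, and 9 and 4 of them were called. Of all probe sets, 31.7% and 36.2% were called higher, so the count against heart lay near that share. Ftsj3, an rRNA methyltransferase, was 1.74 higher than in lungs and 0.87 higher than in heart. Nop16 was 1.54 and 1.12 higher, and Brix1, which is needed for early large subunit assembly, was 1.05 and 0.91 higher. Brix1 values were 8.04, 8.01 and 8.15 in WT lungs, 8.18, 8.17 and 8.27 in WT hearts and 9.05 and 9.18 in WT fibroblasts, so that both fibroblast arrays lay above all organ arrays. The helicase Ddx18 was called only against heart (0.78), and its difference of 0.55 from lungs had an adjusted p of 0.0642, while another probe set of it was called there (0.92). Nop2, an rRNA methyltransferase, Rrs1, Ebna1bp2, the helicase Ddx56, Rrp1b and the GTPase Gnl2 were called only against lungs, with differences from 0.49 for Gnl2 to 0.93 for Rrs1. Other probe sets of Rrp1b and Gnl2 were called against heart too (0.55 and 0.70). Rrp12, which acts in export and late assembly of the small subunit, was likewise 0.70 higher than in lungs and not called against heart. Between lungs and heart themselves, Rrs1, Nop2, Ddx56 and Rrp12 were called and Ebna1bp2, Rrp1b and Gnl2 were not, apart from another Gnl2 probe set (-0.34).

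Between WT lungs and WT heart, 14 of 39 genes were lower in lungs and 3 were higher, beside 25.4% and 34.8% of all probe sets. The median difference was -0.28, where that of all probe sets tested was 0.18, and 24 of 39 differences were below 0, beside 42.1% of all probe sets. The median was -0.12 with the mean over all probe sets of a gene and -0.10 between KO lungs and KO heart, and quantile normalization gave a median of -0.32 with 7 genes above 0 in place of 15. After Wdr12 the largest falls in lungs were those of Rrp12, by 1.06, Rrp9, by 1.05, and Ftsj3, by 0.87. Rrp9 stood at 5.14, 5.25 and 5.14 in WT lungs and at 6.30, 6.4 and 5.99 in WT hearts, with no overlap. The 3 genes higher in lungs were Bms1, Wdr75 (0.62) and Heatr1 (0.61), and Wdr75 lay near the filter value. Of the 17 calls, 7 held under every alternative setting, namely Bms1, Emg1, Ftsj3, Nol6, Rrp12, Rrp9 and Wdr12. Without WT lungs 1592 or without WT heart 1624, 9 genes were called lower, and without WT heart 1592 or 1624 only 1 was called higher.

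**Figure D2:**
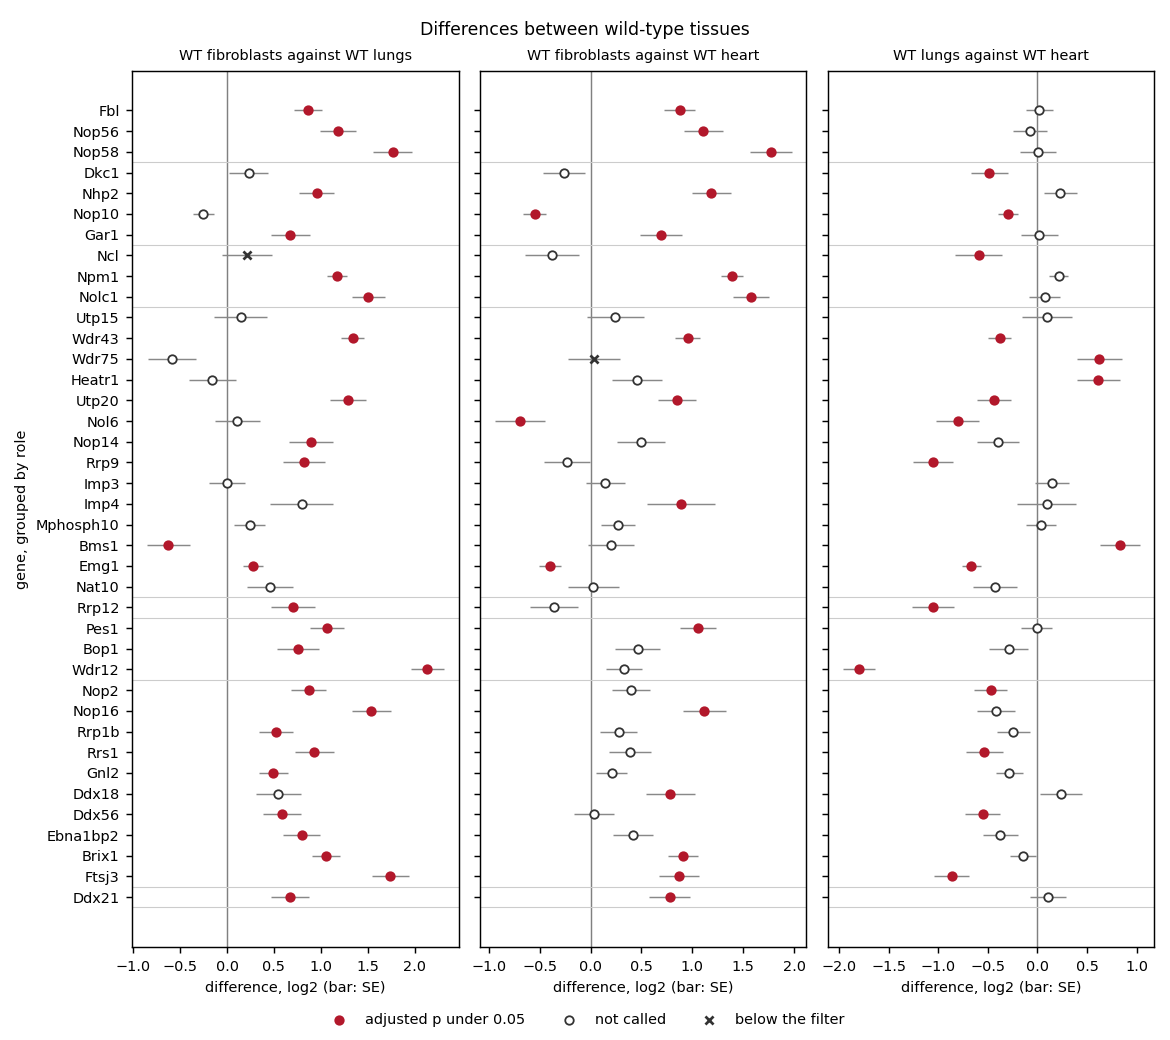
Differences of the 39 genes between WT tissues in log2 (points, bars are SE), with fibroblasts against lungs at the left, fibroblasts against heart in the middle and lungs against heart at the right. Filled points had a limma adjusted p under 0.05. The left panel holds 26 genes called higher and 1 called lower, the middle panel 16 and 3, and the right panel 3 and 14.

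The same tissue differences were read in KO samples, which are other mice than the WT ones. Of the 26 genes called higher in WT fibroblasts than in WT lungs, 25 were also called between KO fibroblasts and KO lungs, the exception being Rrp1b (0.38, adjusted p = 0.0845), and all 16 genes called higher against heart were called again. Between lungs and heart, 3 of 3 higher and 10 of 14 lower genes were called again, without Ncl, Wdr43, Utp20 and Nop2. Of all probe sets, 43.4% were called higher and 25% lower between KO lungs and KO heart. The share of all WT calls made again in KO was not computed, so these repeat counts cannot be set against other genes. In all, 30 genes were called higher and 2 lower in KO fibroblasts than in KO lungs, beside 35.7% and 29.5% of all probe sets. Against KO heart 26 were called higher and 2 lower, beside 42.7% and 24.5%. Across the alternative settings, 16 of 27 calls against lungs and 14 of 19 against heart held under each one. Against lungs the 16 were Nop58, Nop56, Fbl, Nhp2, Npm1, Nolc1, Wdr43, Utp20, Nop14, Pes1, Wdr12, Nop2, Nop16, Rrs1, Brix1 and Ftsj3. Against heart the calls lost under some setting were Ddx18, Emg1, Gar1, Imp4 and Nol6. Without WT fibroblasts 1623, 16 genes were called higher than in lungs. Where called genes had further probe sets, all 15 kept against lungs and all 13 kept against heart had the same sign, and 11 and 8 of them were called.

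Myc itself differed in the same direction. Its values were 5.46, 5.27 and 5.15 in WT lungs, 5.05, 5.22 and 5.53 in WT hearts and 8.36 and 8.15 in WT fibroblasts. The fibroblast arrays lay above all organ arrays, by 2.97 against lungs (7.81-fold, limma adjusted p = 4.46e-09) and 2.99 against heart (7.93-fold, limma adjusted p = 3.06e-09). All 24 measured cell cycle genes were also called higher in WT fibroblasts than in WT lungs, with a median difference of 2.98, beside 31.7% of all probe sets called higher. A part of Myc level or of cell division in the differences of the ribosome biogenesis genes was not tested.

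Promoter sequence was searched because Myc and its partner Max bind the E-box CACGTG. RefSeq windows of 300 bases (GRCm38.p6), from 250 bases before to 50 after the start, were given for 32 of the 39 genes. CACGTG, which reads the same on both strands, stood in 5 windows (15.6%), those of Wdr43, Utp20, Imp4, Pes1 and Nop2, against 8.09% of the 27025 gene windows in the table, which also holds noncoding genes. Searched on both strands, CACGCG stood in 28.1% of the 32 windows against 10.5%, GGGCGG in 65.6% against 38.2% and CCAAT in 43.8% against 41.1%. Only Imp4 and Nop2 held CACGTG before the start, beginning 121 and 60 bases upstream of it, and the 250 bases before the start are shown for these 2 genes with the E-box in capitals. The stretches are chr1:34439579-34439828 for Imp4 and chr6:125131633-125131882 for Nop2, both on the plus strand of GRCm38.p6.
Imp4: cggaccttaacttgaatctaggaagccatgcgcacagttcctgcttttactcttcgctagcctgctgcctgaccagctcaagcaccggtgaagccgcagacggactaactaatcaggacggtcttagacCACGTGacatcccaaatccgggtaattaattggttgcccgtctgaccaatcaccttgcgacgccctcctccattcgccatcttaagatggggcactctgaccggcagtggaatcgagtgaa
Nop2: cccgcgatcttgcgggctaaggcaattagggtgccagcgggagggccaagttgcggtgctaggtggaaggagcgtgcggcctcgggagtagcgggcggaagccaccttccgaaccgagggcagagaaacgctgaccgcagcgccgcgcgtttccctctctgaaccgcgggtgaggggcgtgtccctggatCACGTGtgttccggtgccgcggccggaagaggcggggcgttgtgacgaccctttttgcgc
These matches describe the letters in the windows only. Of the 5 genes with CACGTG, Wdr43, Utp20 and Pes1 were called higher in fibroblasts than in both organs, Nop2 only than in lungs and Imp4 only than in heart by the probe sets read. Of all 38 genes kept, 26 were called higher than in lungs and 16 higher than in heart, beside 31.7% and 36.2% of all probe sets. A link between the motif and these calls was not tested.

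KO and WT samples were then compared within each tissue, with the direction in organs against fibroblasts as the question of interest. No gene of the set was called in any tissue (0 of 38 in lungs, 0 of 38 in heart and 0 of 37 in fibroblasts by limma with Benjamini-Hochberg adjustment), beside 0.0301%, 0.127% and 0.0549% of all probe sets. At an unadjusted limma p under 0.05 there were 1 higher and 2 lower genes in lungs, 0 higher and 3 lower in heart and 0 in fibroblasts. Of all probe sets tested, 1617 of 23218 in lungs, 3746 of 22098 in heart and 727 of 21841 in fibroblasts had such a p in either direction. In lungs single genes differed by -0.43 to 0.35. The range was -0.46 to 0.24 in heart, and fibroblasts spanned -0.19 to 0.44.

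The signs were uneven. In lungs 26 of 38 genes had a lower mean in KO, where 60% of all probe sets did, and the median was -0.07 against -0.06 for all. In heart 30 of 38 were below 0, where 72.2% of all probe sets were, and the median was -0.21 against -0.16. In fibroblasts 33 of 37 were above 0, where 55.3% of all probe sets were, and the median was 0.10 against 0.02. Genes of a set are not independent replicates, so these counts describe the arrays. In lungs and heart they lay near the share of all probe sets, and in fibroblasts they stood further from it.

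**Figure D3:**
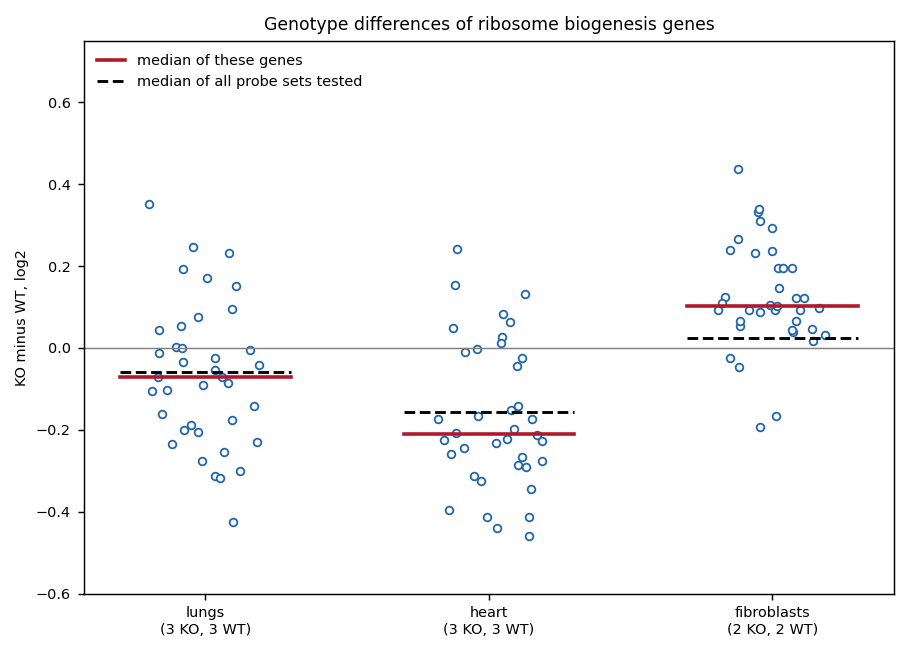
KO minus WT difference in log2 of each gene kept in lungs, heart and fibroblasts (open points), with the median of these genes (red line) and of all probe sets tested (dashed line). The medians are -0.07, -0.21 and 0.10, and that of heart is 0.006 after quantile normalization. No point was called.

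Ddx21, an RNA helicase of the nucleolus that is itself part of B-WICH, had the widest contrast between organs and fibroblasts. Its values were 6.91, 7.07 and 7.23 in WT lungs and 7.07, 6.45 and 6.41 in KO lungs. In hearts they were 6.79, 7.07 and 7.03 in WT and 6.36, 6.78 and 6.81 in KO, and in fibroblasts 7.73 and 7.75 in WT and 8.07 and 7.88 in KO. The genotypes overlapped in both organs and not in fibroblasts, where both KO arrays were higher. The KO difference was -0.43 in lungs (SE 0.18, limma adjusted p = 0.711), -0.31 in heart (adjusted p = 0.389) and 0.23 in fibroblasts (adjusted p = 1.0). The difference of the effects, fibroblasts minus organs, was 0.60 (SE 0.25), with an unadjusted limma p of 0.0343 and an adjusted p of 0.910. Between WT tissues Ddx21 was 0.67 higher in fibroblasts than in lungs and 0.78 higher than in heart (limma adjusted p = 0.011 and 0.00402). For the KO difference, the second Ddx21 probe set gave -0.09, -0.17 and 0.24 in the 3 tissues.

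Brix1 was the only gene whose KO arrays lay below all WT arrays in both organs. In KO lungs it stood at 7.89, 7.62 and 7.74 and in KO hearts at 7.65, 8.03 and 8.15, below the lowest WT values of 8.01 in lungs and 8.17 in heart. The differences were -0.32 in lungs and -0.27 in heart (limma adjusted p = 0.711 and 0.319) and 0.10 in fibroblasts. Over both organs the difference was -0.29 (SE 0.09), with an unadjusted p of 0.00743 and a limma adjusted p of 0.214. The second Brix1 probe set had the same signs in each tissue and was not called. Of all probe sets, 6.46% lay below all WT arrays in lungs and 13.7% in heart. The share that did so in both organs was not computed.

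Other genes were lower than all WT arrays in 1 organ only. In lungs these were Emg1 and Wdr12, with Wdr43 higher, which makes 3 lower and 1 higher of 38 with Brix1, beside 6.46% and 5.08% of all probe sets. In heart they were Nop58, Npm1, Nolc1 and Nop16, which with Brix1 makes 5 lower, and Nop10 and Emg1 were higher, beside 13.7% and 3.91% of all probe sets. Nop58 stood at 7.31, 7.74 and 7.59 in KO hearts, under the WT values given above, and Npm1 at 9.50, 9.59 and 9.53. Their differences of -0.29 and -0.17 had limma adjusted p of 0.429 and 0.369. Nop16 had the largest heart difference, -0.46 (SE 0.19, limma adjusted p = 0.247), from 6.58, 6.37 and 6.45 in WT to 5.48, 6.24 and 6.31 in KO, and its lowest value was that of mouse 1602. In lungs the KO array of mouse 1586 was the lowest of the 6 for 17 of 38 genes, beside 34.9% of all probe sets, and this mouse had the highest adipocyte markers.

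In fibroblasts 10 genes were higher on both KO arrays than on both WT arrays and 2 were lower (Rrs1 and Ftsj3), beside 19.5% and 13% of all probe sets. The 10 were Nhp2, Gar1, Rrp9, Imp3, Emg1, Nat10, Rrp12, Ddx56, Ebna1bp2 and Ddx21. Nat10, the acetyltransferase of small subunit rRNA, had the largest difference, with 5.73 and 5.62 in WT and 6.18 and 6.05 in KO (0.44, SE 0.27, limma adjusted p = 1.0). Ebna1bp2, a large subunit factor, followed with 7.43 and 7.80 in WT and 8.05 and 7.86 in KO (0.34, SE 0.21, limma adjusted p = 1.0). KO fibroblasts 1584 were the highest of the 4 arrays for 24 of 37 genes, against only 25% of all probe sets. WT fibroblasts 1571 were the lowest for 24 of 37 genes, against only 27.7% of all probe sets. Without either of these 2 arrays, 22 of 37 genes were above 0 and the median was 0.03 or 0.05.

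By role, all 13 processome genes kept in fibroblasts had a higher mean in KO (median 0.12), from 0.04 for Nop14 to 0.44 for Nat10, while 10 of 13 had a lower mean in KO heart and 7 of 14 in KO lungs. All 3 box C/D and all 4 box H/ACA genes were above 0 in fibroblasts. Large subunit factors had 7 of 10 above 0 in fibroblasts and 8 of 10 below 0 in each organ. The PeBoW genes were all below 0 in both organs, though in lungs Pes1 and Bop1 differed by only -0.005 and -0.02. Of all probe sets, 60% were below 0 in lungs and 72.2% in heart, and 55.3% were above 0 in fibroblasts. None of the differences of the genes by role was called.

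Combined over tissues, 20 of the 39 genes (51.3%) were lower in KO lungs and KO heart and higher in KO fibroblasts, a pattern shown by 25.2% of 26499 probe sets. They were Fbl, Nop58, Dkc1, Gar1, Npm1, Nolc1, Utp15, Heatr1, Utp20, Nop14, Imp3, Imp4, Rrp12, Bop1, Wdr12, Nop16, Ddx56, Ebna1bp2, Brix1 and Ddx21. Only Wdr75 had the opposite pattern, 5 genes were higher in all 3 tissues and 3 were lower in all 3. The difference of the effects, fibroblasts minus organs, was above 0 for 33 of 39 genes, where 66.3% of all probe sets were, with a median of 0.23 against 0.12. It was called for 0 of 39 genes, beside 0.0377% of all probe sets. Only 1 gene, Ddx21, had an unadjusted limma p under 0.05, beside 1413 of 26499 probe sets. The test of an opposite direction therefore passed for no single gene. Without KO fibroblasts 1550 the median was 0.35 with 2 genes below 0, and without WT fibroblasts 1623 there were 3 below 0, in place of 6. In the other direction, quantile normalization gave 12 below 0 and a median of 0.10, and leaving out KO fibroblasts 1584 or WT fibroblasts 1571 gave 9 or 8 below 0 and a median of 0.17 or 0.15. Over both organs together 30 of 39 genes were below 0, where 68% of all probe sets were, with 0 called beside 0.0722% of all. At an unadjusted limma p under 0.05 there were 4 lower, beside 3859 of 24947 probe sets in either direction. The median of -0.13 became -0.007 after quantile normalization, with 19 genes above 0 in place of 9, and 15 were above 0 without the KO hearts low in atrial markers. The lungs effect minus the heart effect was above 0 for 25 of 39 genes, where 63% of all probe sets were, with 0 called. Its median of 0.13 became -0.002 without KO heart 1602. No gene had an unadjusted limma p under 0.05 for it, beside 1802 of 24947 probe sets.

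The count of 20 depended on single arrays and on scaling. It was 12 (30.8%, against 17.2% of all probe sets) after quantile normalization of the 16 arrays. Without KO heart 1602 it was 16 (41%, against 19.6%) and without KO lungs 1586 also 16 (41%, against 24.1%). It was 15 (38.5%, against 24.6%) without KO fibroblasts 1584 and 11 (28.2%, against 25%) without WT fibroblasts 1571. The share of all probe sets thus fell too, most after quantile normalization and without KO heart 1602. In heart, quantile normalization moved the median of all probe sets from -0.16 to -0.02 and left 19 genes above and 19 below 0 with a median of 0.006, so the heart direction was not kept under that scaling. KO heart 1602 was the lowest of the 6 hearts for 29 of 38 genes, beside 63.8% of all probe sets, and without it 25 of 38 genes were below 0 with a median of -0.06. The part of that array, or of the cell types whose markers differed between KO and WT organs, in the organ values was not tested further. In fibroblast samples the fibroblast markers lay at 10.69 and 10.66 in KO and at 10.60 and 10.06 in WT, and their part was not tested. In fibroblasts 33 genes stayed above 0 after quantile normalization, with a median of 0.08.

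**Figure D4:**
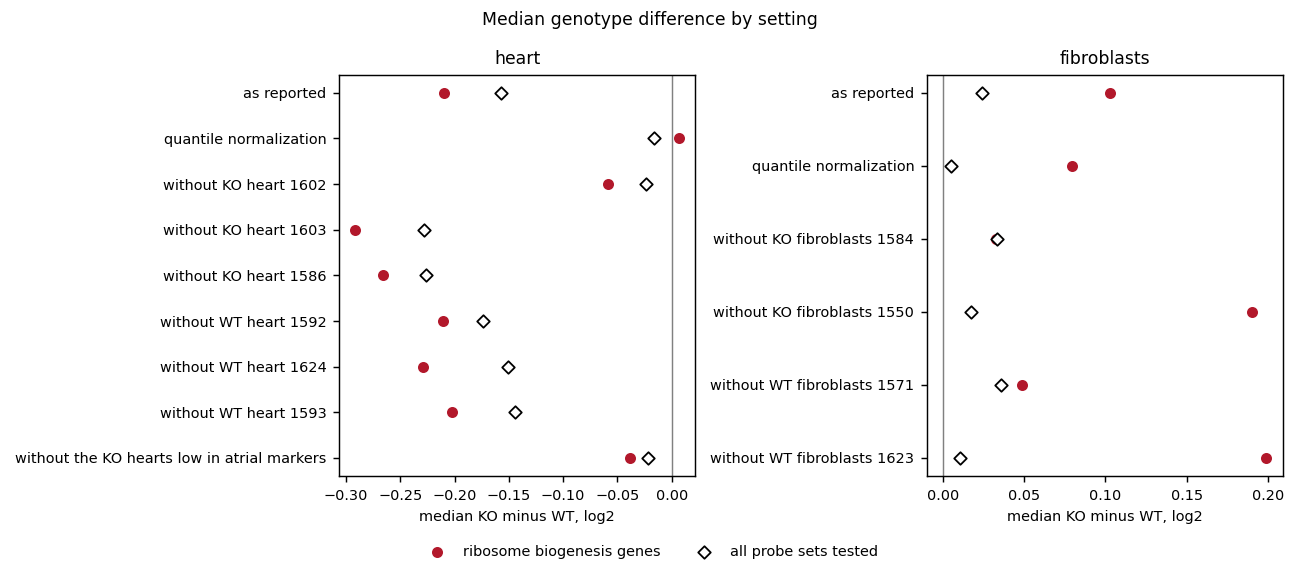
Median KO minus WT difference in log2 in heart (left) and fibroblasts (right) for the ribosome biogenesis genes (filled points) and all probe sets tested (open diamonds), by setting. In heart the median goes from -0.21 to 0.006 with quantile normalization and -0.06 without KO heart 1602, and in fibroblasts from 0.10 to 0.03 without KO 1584 and 0.05 without WT 1571.

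The mean of the 39 genes summarised each array. It was 6.71, 6.77 and 6.78 in WT lungs and 6.71, 6.75 and 6.61 in KO lungs. In hearts it was 7.01, 6.98 and 6.98 in WT and 6.60, 6.95 and 6.94 in KO. In fibroblasts it was 7.38 and 7.54 in WT and 7.64 and 7.50 in KO. The genotypes overlapped in lungs and fibroblasts, and did not in heart, where the gap of 1602 from the other KO hearts was wider than the gap between those and WT. Every fibroblast array lay above every organ array.

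**Figure D5:**
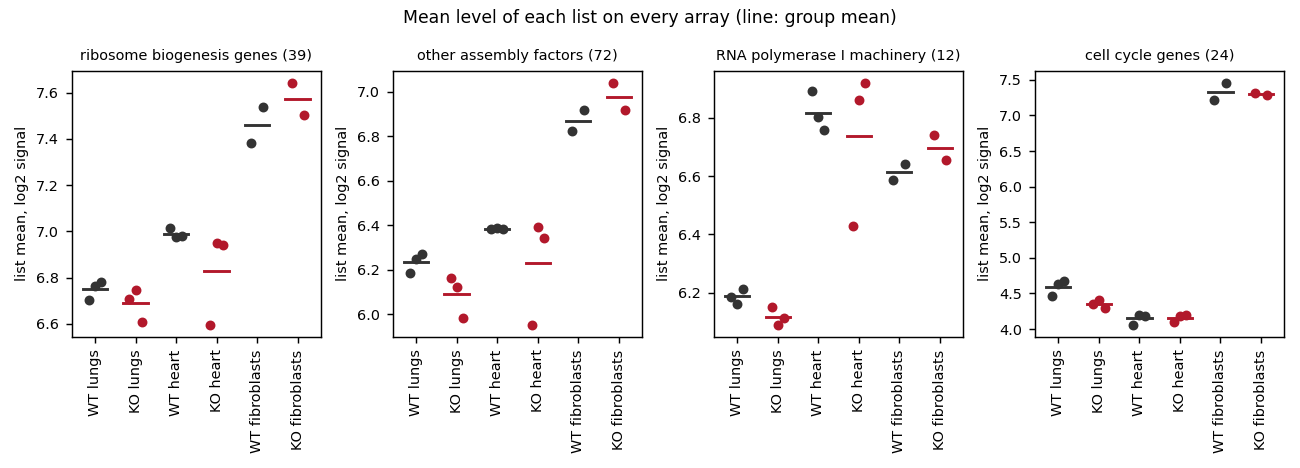
Mean log2 signal of the 39 genes, of 72 other assembly factors, of 12 genes of the RNA polymerase I machinery and of 24 cell cycle genes on every array, by tissue and genotype (black WT, red KO, lines are group means, and each panel has its own axis that does not start at 0). The 39 genes lie from 7.38 to 7.64 on fibroblast arrays and from 6.60 to 7.01 on organ arrays.

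Other genes of the pathway, from a list of 80 further assembly factors of which 72 were measured, were compared in the same way. Of 68 kept, 39 were called higher and 4 lower in WT fibroblasts than in WT lungs, beside 31.7% and 28.4% of all probe sets. Against WT heart 38 were called higher and 4 lower, beside 36.2% and 27.7%. Between genotypes 0 were called, and the differences were below 0 for 50 of 66 in lungs and 49 of 66 in heart and above 0 for 55 of 68 in fibroblasts, with medians of -0.17, -0.16 and 0.14. Of all probe sets, 60% and 72.2% were below 0 in lungs and heart and 55.3% above 0 in fibroblasts. Their medians were -0.06, -0.16 and 0.02, so the heart values of these factors lay near those of all probe sets. At an unadjusted limma p under 0.05 there were 3 lower in lungs, 8 lower in heart and 1 higher in fibroblasts. Among all probe sets, 1617 of 23218, 3746 of 22098 and 727 of 21841 had such a p in either direction, so these counts were no excess in lungs or heart. Rrp8, which takes part in silencing of rRNA genes, had the largest genotype difference, -0.69 in heart (SE 0.18, limma adjusted p = 0.115).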

How the data were processed

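RNA of lungs, heart and skin fibroblasts was hybridised to 16 Affymetrix mouse arrays, from 6 ug of total RNA each per the labels' protocols. The authors deposited a table of log2 signals, with Partek 6.4 named in the submitters' processing notes, and their range showed the log2 scale. How background, probe summary and normalization were handled is not stated in the labels. No detection calls were used, and the number of arrays limits the precision.

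Of 45141 entries, 104 controls were left out, and of 45037 probe sets 28898 had 1 annotated gene, 551 several and 15588 none. For 28689 the symbol was updated by gene number. Values were used as deposited. All arrays entered 1 limma model (limma 3.58.1, R 4.3.3) of 6 groups. A probe set was tested if its mean in a tissue of the comparison exceeded 3.79, which is the median of the whole table. Two-sided p-values were Benjamini-Hochberg adjusted over all tested probe sets, with calls at an adjusted p under 0.05. The fit was tested on simulated data. Each mouse number was read as 1 animal, and p-values measure the spread between these arrays only. Lungs and heart of 1 mouse share a number. Deviations of the 2 organs of a mouse correlated by 0.0404 to 0.169, with a consensus of 0.0542 as a random block. For mice 1602 and 1603 the lungs correlated more with the heart of another mouse (0.0728 and 0.122) than with their own (0.0472 and 0.0404).

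All listed genes could be named, ordered by role, and of other lists the largest changes. Promoters were shown where CACGTG lay before the start. The genes, lists and tests were chosen with earlier results of these data known. Alternatives were quantile normalization, other filters, only the compared tissues, the mouse as a block or unit, all probe sets of a gene, an intensity trend and each array left out.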

Additional observations from a re-analysis of the deposited data

How the results depend on the processing

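Paired by mouse as a replicate block, the calls were 26 higher and 1 lower (fibroblasts against lungs), 16 and 3 (fibroblasts against heart) and 3 and 14 (lungs against heart), as without it, or 2 and 12 with the mouse as a fixed block, and 0 between genotypes. It changed no other call.

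Quantile normalization gave 19 genes above and 19 below 0 in heart (median 0.0065), 19 above 0 over both organs (median -0.0068), 12 below 0 (median 0.10) for fibroblasts minus organs and 22 below 0 (median -0.0298) for lungs minus heart. Between WT tissues it gave 7 genes above 0 (median -0.32) for lungs against heart, 2 called lower against lungs and a median of 0.29 against heart. The mean over all probe sets of a gene gave a median of -0.12 for lungs against heart. In fibroblasts against lungs, fitting only the compared tissues gave 0 called lower and an intensity trend gave 2, in place of 1.

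Leaving out 1 array in turn gave these ranges. Heart had 6 to 13 genes above 0 (median -0.2913 to -0.0588), and fibroblasts had 4 to 15 below 0. Fibroblasts minus organs had 2 to 9 below 0 (median 0.15 to 0.35), and lungs minus heart had 9 to 20 below 0 (median -0.0022 to 0.1762). Between WT tissues, lungs against heart kept 1 to 3 called higher and 9 to 11 called lower (median -0.30 to -0.22), fibroblasts against lungs 16 to 25 higher and 0 to 2 lower (median 0.63 to 0.90), and fibroblasts against heart a median of 0.31 to 0.57.

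Alternatives chosen after seeing the data left out arrays or used KO in place of WT. Without KO hearts 1602 and 1586, low in atrial markers, 14 genes were above 0 in heart (median -0.0382) and 15 over both organs, and the lungs minus heart median was -0.0527. Without the 3 lungs arrays highest in adipocyte markers, 3 genes were below 0 for fibroblasts minus organs. KO in place of WT gave a median of -0.10 for lungs against heart, 2 called lower, 3 below 0 and a median of 1.02 for fibroblasts against lungs, and 26 called higher with a median of 0.78 for fibroblasts against heart.

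The cause of these changes was not tested. With 2 or 3 arrays a group, small differences could not be resolved.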

Other observations

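The 12 measured genes of the RNA polymerase I machinery differed between tissues in both directions. In WT fibroblasts 6 were called higher and 2 lower than in lungs, and 2 were called higher and 4 lower than in heart, beside 31.7% and 28.4% of all probe sets against lungs and 36.2% and 27.7% against heart. In WT lungs 7 were called lower and 2 higher than in heart, beside 25.4% and 34.8% of all probe sets. None was called between genotypes, and at an unadjusted limma p under 0.05 there were 1 lower in lungs, 0 in heart and 1 higher in fibroblasts. Of all probe sets, 1617 of 23218, 3746 of 22098 and 727 of 21841 had such a p in either direction. The largest genotype differences were Rrn3, an initiation factor of RNA polymerase I, at -0.49 in lungs (SE 0.19, limma adjusted p = 0.711) and Polr1b, a polymerase subunit, at 0.60 in fibroblasts (SE 0.23, limma adjusted p = 1.0).

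Myc stood at 8.36 and 8.15 in WT and 8.88 and 8.52 in KO fibroblasts. Both KO arrays were higher, and the difference of 0.45 (SE 0.18) had a limma adjusted p of 1.0. In lungs and heart it was 0.04 and -0.22. Of the 24 measured cell cycle genes, 16 had a lower mean in KO fibroblasts, beside 44.7% of all probe sets. In KO lungs 15 of the 16 kept had a lower mean, beside 60% of all probe sets. None was called, while 2 had an unadjusted limma p under 0.05 in lungs and 0 in fibroblasts. Among all probe sets, 1617 of 23218 in lungs and 727 of 21841 in fibroblasts had such a p.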
